A study of Homo sapiens with 12 samples.

Results

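The genes described here are the 52 translation initiation factor genes measured in A549 cells, out of 25433 genes listed in either of the deposited count tables. They were chosen by symbol, as genes whose symbol starts with EIF1 to EIF6, without symbols that end in P and digits or hold a hyphen. The rule uses symbols only, but the set was chosen with earlier results of these data known, so its counts are a description and no independent support. A gene also had to be listed in the tables, which keep genes above 0.1 CPM (the count scaled to the depth of its library) in at least 4 libraries. Of the 80 symbols with that start, 28 were set aside by the rule: 22 processed pseudogenes, 3 symbols with a hyphen and EIF4EBP1, EIF4EBP2 and EIF4EBP3, which encode inhibitors of initiation and are described beside the 52. All 52 genes are protein-coding, are listed in both tables and passed the filter on low counts in every comparison. EIF1AY, on the Y chromosome, is counted with the others, and no value of its own is given.

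A549 is an established line from a human lung adenocarcinoma, and it keeps traits of alveolar epithelium. The study treated the cells for 2 days and sequenced total RNA after ribosomal RNA removal. The groups were TGF-β1 at 10 ng/mL with sodium acetate at 40 mM (called acetate here, 4 libraries), TGF-β1 at 10 ng/mL alone (TGF-β1, 4 libraries) and control without either (4 libraries). TGF-β1 is a cytokine under which epithelial cells take on mesenchymal traits. No group received acetate without TGF-β1, and none received another sodium salt, so effects of acetate and of the sodium or the solute load cannot be told apart. The labels name separate samples of 1 cell line and do not say whether they came from separate cultures, so every p measures the spread between libraries, which may be technical.

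The count columns carry codes that match no sample label. Their groups rest on the names the authors gave the tables and on the set of 4 columns that both tables share, and the comparisons hold only if those names are right. Under that placement the libraries are S22 to S25 for acetate, S15 to S18 for TGF-β1 and S1 to S4 for control, and lists of 4 values follow this order. Total counts ran from 34698057 to 53936023 per library, and pairs of libraries within a group differed by more than counting noise, with a chi-square per degree of freedom from 3.97 to 17.4. Among lung epithelial carcinoma markers, KRT8, KRT18 and KRT7 had group means between 1456 and 2683 CPM, whereas EPCAM had group means between 1.08 and 5.63 CPM. CDH1 averaged 45.5 CPM in acetate libraries, 1.46 CPM in TGF-β1 libraries and 58.7 CPM in control libraries. Of the markers of other cell types, PTPRC, CD3E, PECAM1, VWF and CDH5 are not listed in both tables. CD68 averaged 22.5, 15.002 and 11.03 CPM and LUM 15.3, 4.36 and 0.407 CPM in acetate, TGF-β1 and control libraries, while PDGFRB and DCN had at most 1.41 CPM in each group mean. The part of cell state or cell mixture in the results below was not tested.

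Translation starts when the eIF2 complex brings the initiator tRNA to the small ribosomal subunit, which eIF1, eIF1A, eIF3 and eIF5 prepare for loading. The mRNA is presented by eIF4F, in which eIF4E binds the cap, eIF4A unwinds the leader and eIF4G holds both, with eIF4B and eIF4H as partners of eIF4A. After the start codon is found, eIF5 makes eIF2 hydrolyse its GTP, eIF5B joins the large subunit, and eIF2B reloads eIF2 with GTP. Cells slow this cycle through kinases that phosphorylate eIF2α, which raises translation of the transcription factor ATF4, and through 4E-BP proteins, which sequester eIF4E when the kinase mTORC1 is inactive. RNA counts show neither phosphorylation nor translation.

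With acetate added to TGF-β1, 40 of the 52 genes fell and 2 rose (EIF4G3 and EIF5A2) at an adjusted p below 0.05 in edgeR's quasi-likelihood test, where the Benjamini-Hochberg adjustment ran over all genes tested. Of all 22336 genes tested in that comparison, 30.4% fell and 33.3% rose. The median log2 fold change of the 52 genes was -0.33, with a range from -0.77 to 0.35, against a median of 0.03 over all genes tested. In the 40 genes that fell the acetate libraries all lay below the TGF-β1 libraries, and in the 2 that rose they all lay above. Such separation was common in this comparison: of 22141 tested genes in both tables, 28.2% had all acetate libraries below and 28.9% all above the TGF-β1 libraries, and 89.1% of the genes called lower were separated. Values written as x ± y are log2 fold changes with their SE, and libraries are scaled by TMM factors, which take most genes as unchanged. Scaled by library totals instead, the median over all genes tested moved by 0.13, and 34 of the 52 genes fell and 10 rose. Relative to the median of all genes, the median of the 52 was -0.36 by either scaling. A change of scaling moves all genes by nearly the same amount, so this agreement is no check of the result. In bulk RNA, fewer cells of a type and less RNA per cell cannot be told apart, and CPM do not show a change in total RNA per cell.

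TGF-β1 against control gave a mixed picture, with 23 of the 52 genes higher and 15 lower, beside 34.1% higher and 32.8% lower among the 22051 genes tested. The median log2 fold change of the 52 genes was 0.05, with a range from -0.98 to 0.76, and that of all genes tested was 0.02. Scaled by library totals, the median over all genes moved by -0.10 and the split turned to 16 higher and 21 lower. The median of the 52 turned to -0.05. Relative to all genes it was 0.04 by either scaling, again a value that a change of scaling could hardly alter. Acetate against control, fitted on all 12 libraries, gave 6 higher and 35 lower, beside 36.1% higher and 34.4% lower among 22742 genes, and a median of -0.26 (range -1.31 to 0.61). These comparisons share libraries: the TGF-β1 libraries stand in the first 2 of them and the control libraries in the last 2, so values are given side by side and are not independent of each other.

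**Figure D1:**
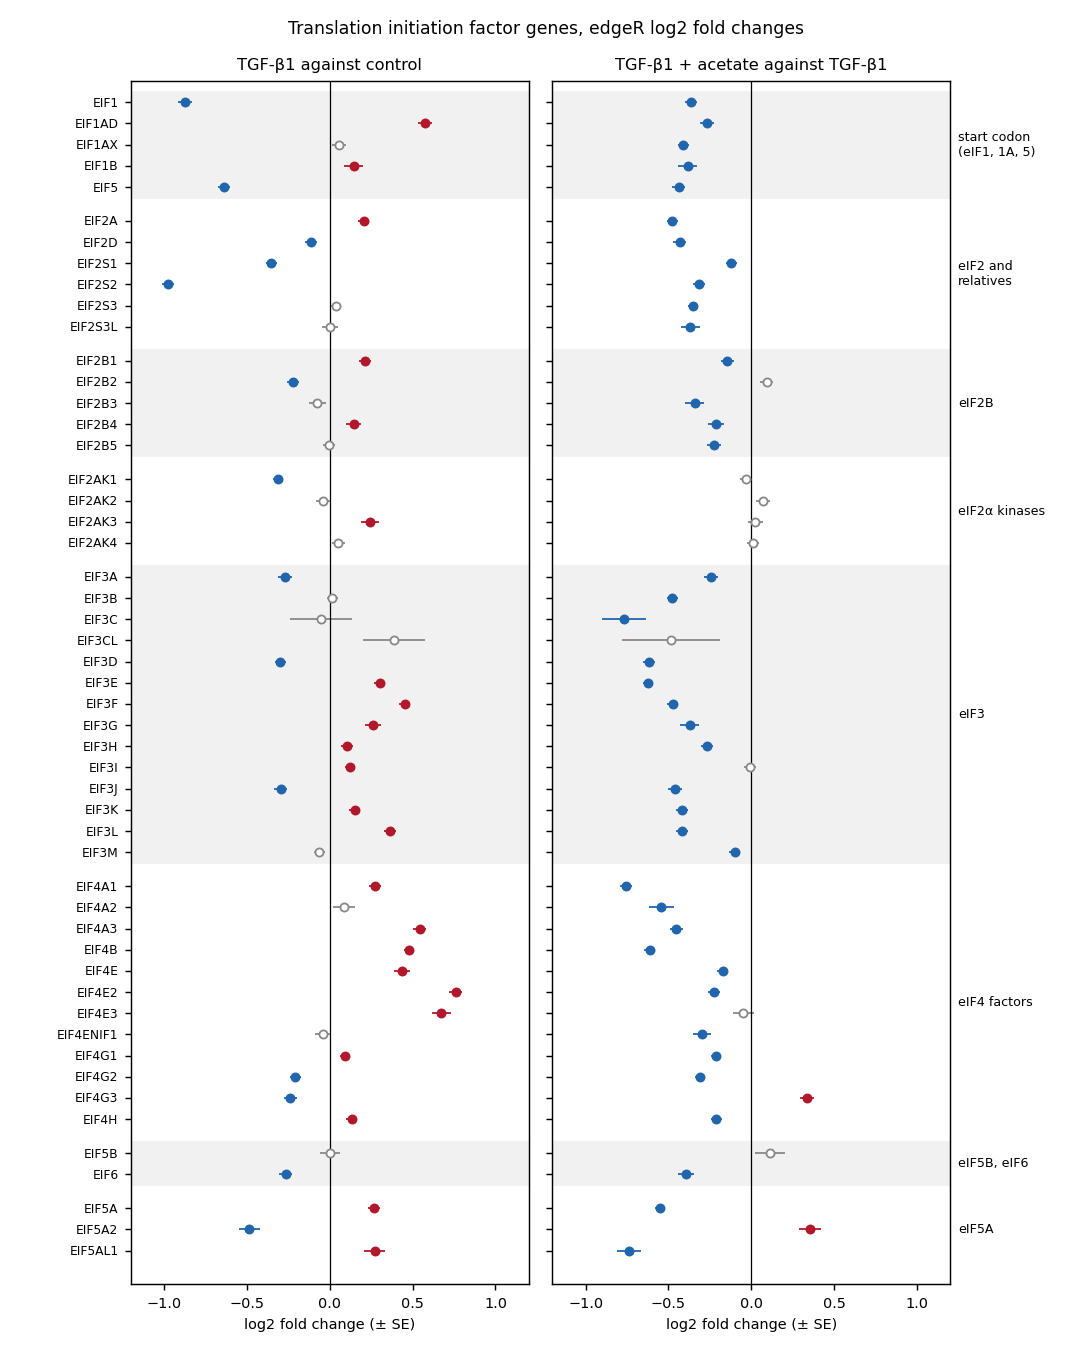
Log2 fold change of 51 initiation factor genes (EIF1AY is not drawn), grouped by role, for TGF-β1 against control (left) and TGF-β1 plus acetate against TGF-β1 (right), with TMM scaling. Points are edgeR estimates and bars ± 1 SE; red and blue points passed an adjusted p below 0.05 as higher or lower, and open grey points did not. The left panel spreads to both sides of 0, from -0.98 for EIF2S2 to 0.76 for EIF4E2, while the right panel lies mostly below 0, from -0.77 for EIF3C to 0.35 for EIF5A2. With library totals EIF1AX, EIF2AK4, EIF2S3, EIF2S3L, EIF3B, EIF4A2, EIF4G1 and EIF5B change sign on the left and EIF2AK1, EIF2S1, EIF3I, EIF3M and EIF4E3 on the right.

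**Figure D2:**
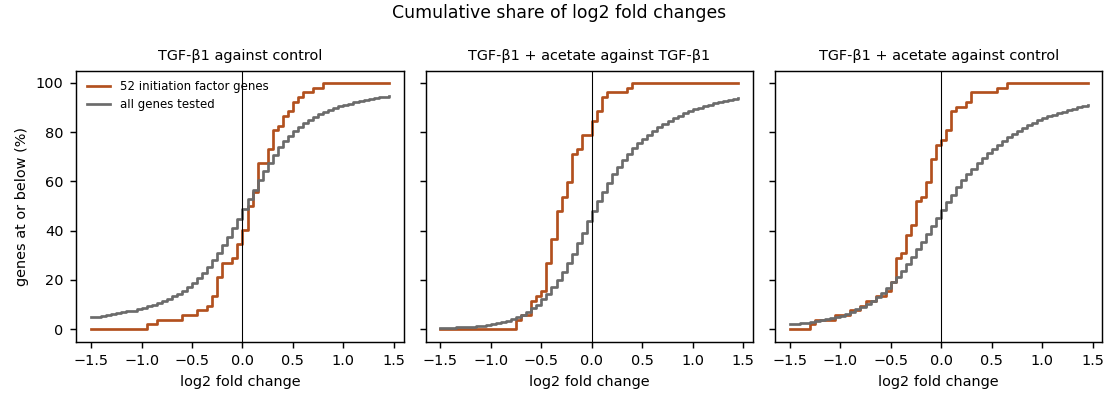
Share of genes at or below each log2 fold change, for the 52 initiation factor genes (orange) and all genes tested (grey), in the 3 comparisons. The orange curve lies left of the grey one near 0 in the panels with acetate, where the medians are -0.33 against 0.03 and -0.26 against 0.02, and is steeper than the grey one in the TGF-β1 panel.

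As a look at the sequences upstream, the RefSeq promoters (GRCh38.p14, 250 bases before to 50 after the start) of 6 genes are printed: EIF1 and EIF5, which fell in all 3 comparisons, EIF4A1 and EIF4B, which rose with TGF-β1 and fell with acetate, and EIF4G3 and EIF5A2, which rose with acetate. Each is written 5′ to 3′ on the gene's strand, and capitals mark CACGTG (an E-box), TGACGT (the core of a cAMP response element) or CCGGAA (an ETS core), searched on both strands.
EIF1 chr17:41688635-41688934 (+ strand): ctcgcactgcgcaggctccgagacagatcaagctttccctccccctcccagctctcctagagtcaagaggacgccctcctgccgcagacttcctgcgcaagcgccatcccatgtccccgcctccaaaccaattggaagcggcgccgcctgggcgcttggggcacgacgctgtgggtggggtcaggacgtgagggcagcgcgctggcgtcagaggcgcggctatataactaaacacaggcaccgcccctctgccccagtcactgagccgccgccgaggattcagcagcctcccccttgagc
EIF5 chr14:103333987-103334286 (+ strand): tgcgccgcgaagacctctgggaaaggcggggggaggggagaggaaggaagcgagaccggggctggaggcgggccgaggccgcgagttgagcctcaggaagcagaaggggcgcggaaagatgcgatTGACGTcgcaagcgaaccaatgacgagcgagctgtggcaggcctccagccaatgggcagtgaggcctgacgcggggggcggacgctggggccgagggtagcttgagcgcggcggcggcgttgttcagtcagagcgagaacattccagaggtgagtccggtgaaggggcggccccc
EIF4A1 chr17:7572575-7572874 (+ strand): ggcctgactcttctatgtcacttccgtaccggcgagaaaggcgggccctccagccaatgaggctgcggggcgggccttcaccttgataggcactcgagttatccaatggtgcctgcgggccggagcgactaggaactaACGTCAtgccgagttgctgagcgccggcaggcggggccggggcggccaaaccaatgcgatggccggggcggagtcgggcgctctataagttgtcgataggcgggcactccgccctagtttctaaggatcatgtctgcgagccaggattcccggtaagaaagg
EIF4B chr12:53006206-53006505 (+ strand): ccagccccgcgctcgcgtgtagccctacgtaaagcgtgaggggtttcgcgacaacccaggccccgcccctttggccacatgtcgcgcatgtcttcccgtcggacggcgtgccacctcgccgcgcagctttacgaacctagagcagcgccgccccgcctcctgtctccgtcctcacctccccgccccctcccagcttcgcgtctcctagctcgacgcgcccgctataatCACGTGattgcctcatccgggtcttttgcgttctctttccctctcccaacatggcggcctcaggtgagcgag
EIF4G3 chr1:21111334-21111633 (- strand): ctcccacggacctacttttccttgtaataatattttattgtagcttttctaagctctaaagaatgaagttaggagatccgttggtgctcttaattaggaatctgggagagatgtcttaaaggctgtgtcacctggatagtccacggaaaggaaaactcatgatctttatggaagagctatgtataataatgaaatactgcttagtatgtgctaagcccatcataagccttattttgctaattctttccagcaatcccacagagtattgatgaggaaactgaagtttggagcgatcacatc
EIF5A2 chr3:170908588-170908887 (- strand): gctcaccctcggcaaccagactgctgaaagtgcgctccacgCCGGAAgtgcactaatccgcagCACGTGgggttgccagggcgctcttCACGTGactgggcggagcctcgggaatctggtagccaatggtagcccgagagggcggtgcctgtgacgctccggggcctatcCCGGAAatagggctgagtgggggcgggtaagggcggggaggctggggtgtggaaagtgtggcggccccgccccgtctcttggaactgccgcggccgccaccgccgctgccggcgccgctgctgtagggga
The EIF1 and EIF4G3 windows hold none of these letters, EIF5 and EIF4A1 hold TGACGT once each, EIF4B holds CACGTG once, and EIF5A2 holds CACGTG 2 times and CCGGAA 2 times. The EIF4G3 window is the poorest in G and C of the 6, at 38.7% beside 62.7% to 69.0% in the others. It lies around a RefSeq start well inside the GENCODE 29 gene, which reaches 21176888 at its 5′ end, and the windows of EIF5 and EIF4B also begin downstream of their GENCODE starts, so a start used in these cells may lie elsewhere. A promoter was at hand for 44 of the 52 genes, and not for EIF2S2, EIF2AK1, EIF3A, EIF3CL, EIF3E, EIF3G, EIF3H and EIF3L. CACGTG was present in 11 of the 44 windows (25%), beside 7.26% of all 35116 promoters in the table and 8.34% of the 22199 promoters of protein-coding genes. CCGGAA was present in 17 of the 44 (38.6%), beside 17.2% and 21.2%, and TGACGT in 3 of the 44 (6.82%), beside 7.98% and 8.94%. Each of the 44 genes has a single window here, the first listed for it, while both backgrounds count every listed promoter, so the shares are not strictly alike. A match is a description of letters and shows no binding.

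The 12 eIF4 genes, which bind the cap and unwind the mRNA leader, were mostly higher with TGF-β1 (8 rose and 2 fell) and mostly lower when acetate was added (10 fell and 1 rose). With library totals 6 were higher and 3 lower with TGF-β1. The shares of all genes tested were 34.1% higher and 32.8% lower with TGF-β1, and 33.3% higher and 30.4% lower with acetate against TGF-β1. EIF4A1, the main RNA helicase of eIF4F (chromosome 17, 7572706 to 7579005 on hg38), had 699.5, 708, 733 and 659 CPM in acetate libraries, 1134, 1184, 1233 and 1214 CPM in TGF-β1 libraries and 991, 959, 1004 and 1003 CPM in control libraries. The 3 groups did not overlap, and the acetate libraries were the lowest. It rose with TGF-β1 (log2 fold change 0.27 ± 0.03, adjusted p = 2.13e-06), fell with acetate against TGF-β1 (log2 fold change -0.76 ± 0.04, adjusted p = 9.82e-11) and was lower with acetate than in control (log2 fold change -0.50 ± 0.04, adjusted p = 3.10e-10). The gene shares its interval on the same strand with SENP3-EIF4A1 and AC016876.2, listed at means of 861 and 849.9 CPM over the 12 libraries, so the reads behind the count may be shared between these entries.

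EIF4B, which stimulates the helicase (chromosome 12, 53006158 to 53042209 on hg38), had 590.4, 597, 629 and 611 CPM in acetate libraries, 906, 928, 958 and 951 CPM in TGF-β1 libraries and 683, 666, 672 and 675 CPM in control libraries. The TGF-β1 libraries were the highest, with no overlap between groups. EIF4B rose with TGF-β1 (log2 fold change 0.48 ± 0.03, adjusted p = 6.90e-10), fell with acetate against TGF-β1 (log2 fold change -0.61 ± 0.03, adjusted p = 1.58e-10) and lay a little under control with acetate (log2 fold change -0.15 ± 0.03, adjusted p = 2.43e-04). EIF4A2, the second helicase gene, had 259, 273, 276 and 223 CPM in acetate libraries, 347, 376, 444 and 346 CPM in TGF-β1 libraries and 334, 355, 387 and 353 CPM in control libraries. The acetate libraries lay below all others, while TGF-β1 and control libraries overlapped. It fell with acetate (log2 fold change -0.54 ± 0.08, adjusted p = 1.44e-05), and its value for TGF-β1 against control was 0.09 ± 0.07 (adjusted p = 0.259). EIF4A3, a relative that sits in the exon junction complex, rose with TGF-β1 (0.54 ± 0.04) and fell with acetate (-0.45 ± 0.04).

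The 3 genes of the eIF4E family in the tables were among the 6 of the 52 that were higher with acetate than in control, beside EIF1AD, EIF2AK3 and EIF3I. Of these, EIF3I (log2 fold change 0.10 ± 0.04, adjusted p = 0.0198) was lost without S1, S2, S3 or S24 (0.09, 0.07, 0.09 and 0.06, adjusted p = 0.0504, 0.0939, 0.0531 and 0.0938), and also with RLE factors (0.08, 0.0707), DESeq2 (0.08, 0.0570) or its 8 libraries alone (0.08, 0.0790). EIF2AK3 was called higher at a log2 fold change of 0.25, though its acetate and control libraries overlapped. EIF4E, the cap-binding subunit of eIF4F, had 55.5, 56.2, 56.7 and 54.8 CPM in acetate libraries, 63.7, 62.1, 62.3 and 65.2 CPM in TGF-β1 libraries and 50.3, 44.3, 49.6 and 43.97 CPM in control libraries. All TGF-β1 libraries were highest and all control libraries lowest. EIF4EP2, a processed pseudogene of EIF4E, averaged 15.2 CPM over the 12 libraries, and reads could be split between the copy and EIF4E. EIF4E rose with TGF-β1 (log2 fold change 0.43 ± 0.05, adjusted p = 3.53e-07), fell with acetate against TGF-β1 (log2 fold change -0.17 ± 0.03, adjusted p = 3.82e-04, -0.04 with an adjusted p of 0.324 under library totals, over a range of adjusted p from 5.11e-06 to 0.324 across the alternatives) and stayed above control (log2 fold change 0.25 ± 0.04, adjusted p = 5.00e-05). EIF4E2, a cap-binding relative known for repressing the mRNAs it binds (chromosome 2, 232550052 to 232583644 on hg38), had 46.5, 47.2, 47.03 and 49.3 CPM in acetate libraries, 55.03, 55.8, 56.4 and 56.4 CPM in TGF-β1 libraries and 32.9, 32.3, 31.95 and 35.4 CPM in control libraries. The order of the groups was the same, again without overlap. Its rise with TGF-β1 had the smallest p among the 23 genes that rose in that comparison (log2 fold change 0.76 ± 0.04, adjusted p = 3.41e-11), its fall with acetate was smaller (log2 fold change -0.23 ± 0.03, adjusted p = 3.07e-05), and it was higher with acetate than in control (log2 fold change 0.52 ± 0.04, adjusted p = 3.79e-10). EIF4E3, another cap-binding relative, had 18.6, 15.99, 15.98 and 17.9 CPM in acetate libraries, 17.4, 16.7, 17.99 and 19.1 CPM in TGF-β1 libraries and 11.7, 11.1, 10.9 and 11.04 CPM in control libraries. Acetate and TGF-β1 libraries overlapped and both lay above control (log2 fold change 0.67 ± 0.06, adjusted p = 1.55e-08 for TGF-β1 against control, log2 fold change 0.61 ± 0.06, adjusted p = 3.06e-08 for acetate against control), with -0.05 ± 0.06 for acetate against TGF-β1 (adjusted p = 0.516).

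The scaffold genes of eIF4F went different ways. EIF4G1, the main scaffold, had 395, 372, 381 and 393 CPM in acetate libraries, 448, 451, 446 and 457 CPM in TGF-β1 libraries and 439, 416, 426 and 419 CPM in control libraries. The acetate libraries were lowest, and the TGF-β1 libraries lay just above control. It fell with acetate (log2 fold change -0.21 ± 0.03, adjusted p = 1.82e-05), and its small rise with TGF-β1 (log2 fold change 0.09 ± 0.03, adjusted p = 0.0190) was lost without control libraries S2, S3 or S4 (0.05, 0.06 and 0.06, adjusted p = 0.196, 0.159 and 0.177) and turned to -0.01 with library totals. EIF4G3, its paralogue (chromosome 1, 20806292 to 21176888 on hg38), had 109, 106, 99.8 and 106 CPM in acetate libraries, 89.3, 80.5, 81.4 and 84.02 CPM in TGF-β1 libraries and 100.4, 104, 97.8 and 94.5 CPM in control libraries. The TGF-β1 libraries were the lowest, while acetate and control libraries overlapped. EIF4G3 fell with TGF-β1 (log2 fold change -0.24 ± 0.04, adjusted p = 8.75e-05) and rose with acetate (log2 fold change 0.34 ± 0.04, adjusted p = 3.46e-06), with 0.08 ± 0.04 for acetate against control (adjusted p = 0.0735, and 0.0266 without S24, at 0.11, or 0.0185 with library totals, at 0.13). EIF4G2, a scaffold relative that does not bind eIF4E and serves cap-independent initiation, had group means of 959 CPM in acetate libraries, 1198 CPM in TGF-β1 libraries and 1389 CPM in control libraries. It was lower in each step (-0.21 ± 0.03 for TGF-β1 against control, -0.31 ± 0.03 for acetate against TGF-β1). EIF4H, a partner of the helicase, and EIF4ENIF1, which carries eIF4E into the nucleus, fell with acetate (-0.21 ± 0.03 and -0.29 ± 0.05).

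**Figure D3:**
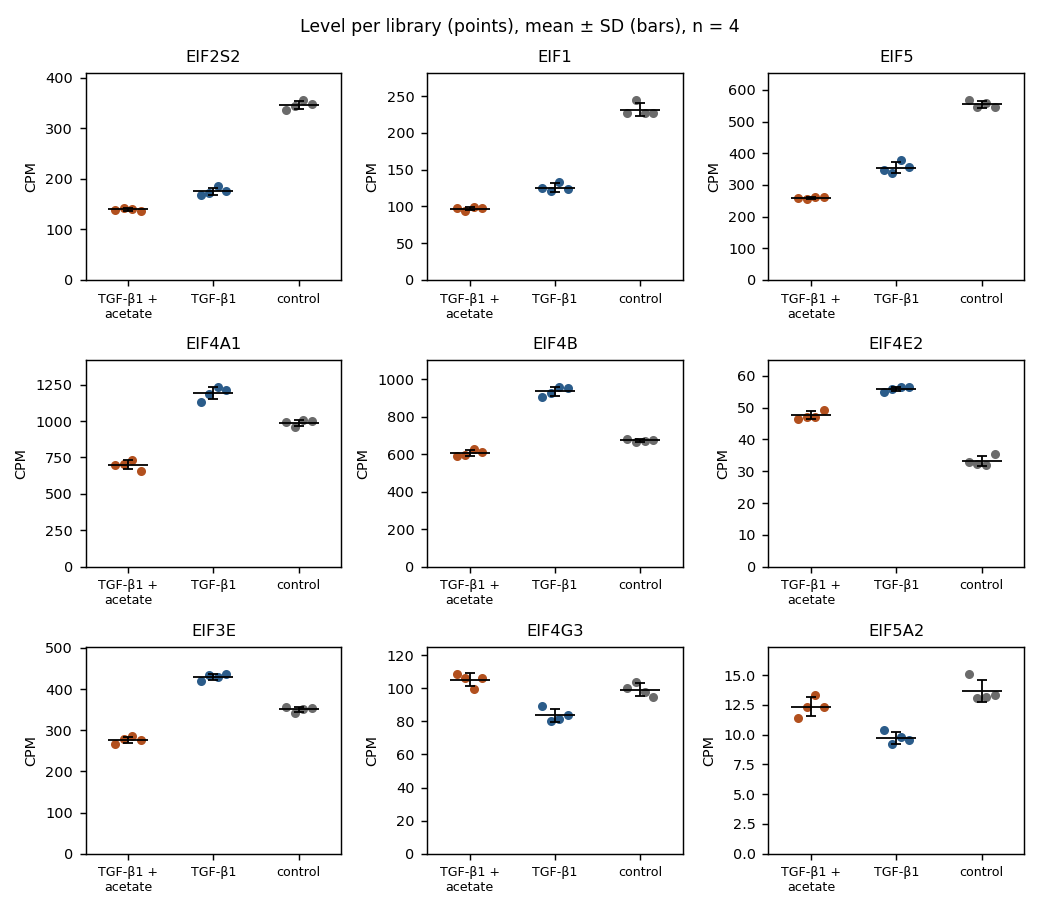
Level in CPM of 9 initiation factor genes in each library (points), with the group mean and ± 1 SD (bars, n = 4), from left to right TGF-β1 plus acetate, TGF-β1 and control. EIF2S2, EIF1 and EIF5 step down towards acetate, EIF4A1, EIF4B and EIF3E are highest with TGF-β1 and lowest with acetate, EIF4E2 is highest with TGF-β1 and lowest in control, and EIF4G3 and EIF5A2 are lowest with TGF-β1.

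The 4E-BP genes, outside the 52, encode the proteins that sequester eIF4E, and they moved apart. EIF4EBP1 had 57.4, 54.2, 60.5 and 55.2 CPM in acetate libraries, 66.2, 76.6, 71.7 and 78.1 CPM in TGF-β1 libraries and 99.2, 125, 116 and 122 CPM in control libraries. The groups did not overlap, and it fell with TGF-β1 (log2 fold change -0.66 ± 0.07, adjusted p = 1.45e-07) and again with acetate (log2 fold change -0.35 ± 0.05, adjusted p = 1.53e-05). EIF4EBP2 had 124, 116, 104 and 119 CPM in acetate libraries, 110.3, 102, 94.03 and 109 CPM in TGF-β1 libraries and 58.9, 56.7, 54.5 and 54.96 CPM in control libraries. Both treated groups lay above control, and it rose with TGF-β1 (log2 fold change 0.89 ± 0.05, adjusted p = 6.61e-11) and was above control with acetate (log2 fold change 1.04 ± 0.05, adjusted p = 1.90e-12). Its further rise with acetate against TGF-β1 (log2 fold change 0.17 ± 0.06, adjusted p = 0.0167) came with overlapping libraries and was lost without S16, S17 or S22 (0.14, 0.10 and 0.13, adjusted p = 0.0798, 0.147 and 0.0650). EIF4EBP3 had group means of 2.10 CPM in acetate libraries, 1.85 CPM in TGF-β1 libraries and 1.93 CPM in control libraries and passed in no comparison in the TMM fits, while with library totals it was higher with acetate than with TGF-β1 (0.32, adjusted p = 0.0409).

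The 14 eIF3 genes encode the large complex that binds the small subunit and links it to eIF4G. With acetate against TGF-β1, 12 of the 14 fell and none rose, beside 30.4% lower and 33.3% higher among all genes tested. The median of the 14 was -0.44. With TGF-β1 against control 7 rose and 3 fell, beside 34.1% higher and 32.8% lower among all genes tested. Of the 7, EIF3H (0.10 ± 0.03) was lost without S1, S2, S3 or S17 (0.08, 0.07, 0.07 and 0.08, adjusted p = 0.0963, 0.0975, 0.143 and 0.0516) and EIF3I (0.12 ± 0.03) without S3 (0.09, 0.0535). With library totals the split was 4 higher and 5 lower, as EIF3H, EIF3I and EIF3K did not pass (0.00, 0.02 and 0.05) and EIF3B and EIF3M were called lower. EIF3E, a subunit that contacts eIF4G, had 268, 279, 285 and 276 CPM in acetate libraries, 419, 434, 430.1 and 437 CPM in TGF-β1 libraries and 356, 341, 352 and 353 CPM in control libraries. No groups overlapped, and the acetate libraries were lowest and the TGF-β1 libraries highest. EIF3E rose with TGF-β1 (log2 fold change 0.30 ± 0.03, adjusted p = 2.94e-07), fell with acetate against TGF-β1 (log2 fold change -0.62 ± 0.03, adjusted p = 1.40e-10) and lay under control with acetate (log2 fold change -0.34 ± 0.03, adjusted p = 1.07e-08). EIF3A, the largest subunit and a core scaffold, had 269, 254, 240.3 and 259.8 CPM in acetate libraries, 316, 285, 314 and 302 CPM in TGF-β1 libraries and 379.8, 368, 385 and 342 CPM in control libraries. It stepped down across the groups without overlap, falling with TGF-β1 (log2 fold change -0.27 ± 0.04, adjusted p = 4.01e-05) and with acetate (log2 fold change -0.24 ± 0.04, adjusted p = 1.33e-04).

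Among the other eIF3 genes, EIF3F, EIF3L and EIF3G resembled EIF3E in direction. EIF3F rose with TGF-β1 (0.45 ± 0.03) and fell with acetate (-0.47 ± 0.03), as did EIF3L (0.36 ± 0.03 and -0.42 ± 0.04) and EIF3G (0.26 ± 0.05 and -0.37 ± 0.06). AL022311.1 overlaps EIF3L on the same strand, at a mean of 114 CPM over the 12 libraries, so reads may be shared between them. EIF3D, which can bind the cap of some mRNAs itself, and EIF3J, a loosely attached subunit, fell in each comparison as EIF3A did. EIF3D had group means of 93.7 CPM in acetate libraries, 145 CPM in TGF-β1 libraries and 179 CPM in control libraries, with -0.30 ± 0.03 for TGF-β1 against control and -0.62 ± 0.04 for acetate against TGF-β1, and EIF3J 42.7 CPM in acetate libraries, 59.2 CPM in TGF-β1 libraries and 72.9 CPM in control libraries, with -0.30 ± 0.04 and -0.46 ± 0.04. EIF3B, another core scaffold, had means of 234 CPM in acetate libraries, 328 CPM in TGF-β1 libraries and 326 CPM in control libraries, fell with acetate (-0.48 ± 0.03) and showed 0.01 ± 0.03 with TGF-β1 (adjusted p = 0.726, -0.09 and lower with library totals). EIF3K fell with acetate (-0.42 ± 0.03) and EIF3H did too (-0.27 ± 0.04). EIF3M fell (-0.10 ± 0.03), a fall that turned to 0.03 with library totals. EIF3I gave -0.01 ± 0.04 (adjusted p = 0.884), and 0.12, a rise, with library totals.

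EIF3C and EIF3CL are near-identical copies on chromosome 16 between which reads can be split, so their values are uncertain. EIF3CL had 19.2, 21.5, 38.997 and 11.3 CPM in acetate libraries, 51.7, 27.8, 21.4 and 27.8 CPM in TGF-β1 libraries and 27.99, 24.1, 24.8 and 21.9 CPM in control libraries. S24 among the acetate libraries and S15 among the TGF-β1 libraries were far above the others of their group. Its value for acetate against TGF-β1 was -0.49 ± 0.30 (adjusted p = 0.166), -0.19 without S15 (adjusted p = 0.540), -0.26 without S25 (adjusted p = 0.422) and -0.89 without S24 (adjusted p = 0.00455). For TGF-β1 against control it was 0.39 ± 0.19 (adjusted p = 0.0809), 0.06 without S15 (adjusted p = 0.578) and 0.55 without S17 (adjusted p = 0.00832). EIF3C fell with acetate (log2 fold change -0.77 ± 0.13, adjusted p = 1.19e-04), with group means of 5.57 CPM in acetate libraries, 9.61 CPM in TGF-β1 libraries and 9.96 CPM in control libraries.

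The eIF2 complex delivers the initiator tRNA. All 6 genes of eIF2 and its relatives fell with acetate against TGF-β1, beside 30.4% of all genes tested. EIF2S2, which encodes the β subunit that meets eIF5 (chromosome 20, 34088298 to 34112332 on hg38), had 139, 143, 140.4 and 137 CPM in acetate libraries, 168, 173, 185 and 176 CPM in TGF-β1 libraries and 336, 345, 356 and 348 CPM in control libraries. The groups were far apart, with the control libraries at the top. It fell with TGF-β1 to about 0.509 of control (log2 fold change -0.98 ± 0.04, adjusted p = 5.43e-13), fell again with acetate against TGF-β1 (log2 fold change -0.32 ± 0.04, adjusted p = 1.41e-06), and stood with acetate at 0.404 of control (log2 fold change -1.31 ± 0.04, adjusted p = 1.11e-16), the largest difference among the 52 genes in that comparison. EIF2S1, the α subunit that the stress kinases phosphorylate, had 153, 158, 157 and 154 CPM in acetate libraries, 165, 167, 172 and 177 CPM in TGF-β1 libraries and 218, 217, 221 and 216 CPM in control libraries. The groups did not overlap, and the acetate libraries were lowest. EIF2S1 fell with TGF-β1 (log2 fold change -0.35 ± 0.03, adjusted p = 8.08e-08) and more weakly with acetate (log2 fold change -0.12 ± 0.03, adjusted p = 0.00430), a step that turned to 0.01 with library totals (adjusted p = 0.806, range over alternatives 1.60e-04 to 0.806).

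EIF2S3, the γ subunit that binds GTP and the tRNA, had group means of 324 CPM in acetate libraries, 417 CPM in TGF-β1 libraries and 408 CPM in control libraries. It gave 0.04 ± 0.03 with TGF-β1 (adjusted p = 0.353) and fell with acetate (-0.35 ± 0.03). EIF2S3L, a near-identical copy on chromosome 12, fell with acetate (-0.37 ± 0.06), and reads could be split between the 2 genes. EIF2A and EIF2D are separate proteins able to deliver tRNA without eIF2. EIF2A rose with TGF-β1 (0.20 ± 0.03) and fell with acetate (-0.48 ± 0.03). EIF2D fell with acetate (-0.43 ± 0.04), and its small fall with TGF-β1 (log2 fold change -0.11 ± 0.04, adjusted p = 0.0154) was lost without S16 (-0.09, adjusted p = 0.0639).

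The eIF2B genes, which encode the exchange factor that reloads eIF2, changed less. With acetate 4 of 5 fell and none rose, beside 30.4% lower and 33.3% higher among all genes tested. With TGF-β1 2 rose and 1 fell, beside 34.1% higher and 32.8% lower, so this split among 5 genes says little about the set. The rise of EIF2B4 (0.14 ± 0.04) was lost without S1 (0.10, adjusted p = 0.0678). With library totals 1 of the 5 was higher and 3 were lower with TGF-β1, and with acetate 1 was higher and 1 lower. EIF2B5, the catalytic subunit, had 31.1, 31.1, 33.7 and 30.5 CPM in acetate libraries, 35.96, 37.8, 37.3 and 37.7 CPM in TGF-β1 libraries and 37.4, 37.6, 38.6 and 36.2 CPM in control libraries. The acetate libraries lay below the others, and TGF-β1 and control libraries overlapped. It fell with acetate (log2 fold change -0.22 ± 0.04, adjusted p = 2.73e-04, -0.09 with library totals at an adjusted p of 0.0554, range over alternatives 5.89e-06 to 0.0554) and gave -0.01 ± 0.04 for TGF-β1 against control (adjusted p = 0.913). EIF2B1, a regulatory subunit, EIF2B3 and EIF2B4 fell with acetate (-0.14 ± 0.04, -0.34 ± 0.05 and -0.21 ± 0.05), of which EIF2B1 and EIF2B4 did not pass with library totals (-0.01 and -0.08). EIF2B2 gave 0.09 ± 0.04 (adjusted p = 0.0630), 0.12 without S23 (adjusted p = 0.0314) and 0.22 with library totals (adjusted p = 0.000124).

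None of the 4 eIF2α kinase genes passed with acetate against TGF-β1 in the TMM fit, at an adjusted p from 0.154 to 0.811. Among all genes tested 30.4% fell and 33.3% rose there. Their log2 fold changes were -0.03 ± 0.03 for EIF2AK1, which responds to haem shortage and mitochondrial stress, 0.07 ± 0.04 for EIF2AK2, which responds to double-stranded RNA, 0.02 ± 0.05 for EIF2AK3, which responds to unfolded protein in the endoplasmic reticulum, and 0.01 ± 0.04 for EIF2AK4, which responds to amino acid shortage. With library totals all 4 were called higher, at 0.10, 0.20, 0.15 and 0.14, which is near the 0.16 of all genes under that scaling. With TGF-β1 against control EIF2AK1 fell (-0.31 ± 0.03) and EIF2AK3 rose (0.24 ± 0.05).

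Start codon selection held some of the largest falls. EIF1, which keeps the ribosome scanning until a good start codon is met (chromosome 17, 41688885 to 41692668 on hg38), had 97.4, 93.9, 99.1 and 98.2 CPM in acetate libraries, 125, 121, 134 and 124 CPM in TGF-β1 libraries and 227, 245, 227 and 227 CPM in control libraries. The control libraries were the highest by a wide margin, and no groups overlapped. It fell with TGF-β1 to 0.545 of control (log2 fold change -0.88 ± 0.04, adjusted p = 7.14e-12), fell with acetate against TGF-β1 (log2 fold change -0.36 ± 0.04, adjusted p = 5.57e-07) and stood with acetate at 0.419 of control (log2 fold change -1.25 ± 0.04, adjusted p = 7.20e-16). EIF5, the GTPase activator of eIF2 that acts against EIF1 at the start codon (chromosome 14, 103333544 to 103345025 on hg38), had 259.9, 255, 262 and 263 CPM in acetate libraries, 347, 337, 378 and 356 CPM in TGF-β1 libraries and 567, 545, 559 and 547 CPM in control libraries. It followed the same order without overlap, with a fall with TGF-β1 (log2 fold change -0.64 ± 0.04, adjusted p = 1.75e-10), with acetate against TGF-β1 (log2 fold change -0.44 ± 0.04, adjusted p = 3.88e-08) and with acetate against control (log2 fold change -1.09 ± 0.04, adjusted p = 1.37e-15). The promoters of both genes are among those printed above.

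EIF1B, a paralogue of EIF1, had 10.9, 10.6, 10.7 and 9.91 CPM in acetate libraries, 13.7, 13.7, 13.8 and 14.1 CPM in TGF-β1 libraries and 11.98, 12.9, 13.6 and 11.8 CPM in control libraries. The acetate libraries were lowest, and it fell with acetate (log2 fold change -0.38 ± 0.06, adjusted p = 2.12e-05). Its rise with TGF-β1 (log2 fold change 0.14 ± 0.06, adjusted p = 0.0365) was at the edge of the test and was lost without S1, S2, S4, S17 or S18 (0.10, 0.13, 0.09, 0.15 and 0.14, adjusted p = 0.191, 0.0840, 0.215, 0.0576 and 0.0747), with library totals (0.04, 0.552), RLE factors (0.13, 0.0533) and DESeq2 (0.13, 0.0809). EIF1AX, the scanning factor eIF1A, had group means of 115 CPM in acetate libraries, 153 CPM in TGF-β1 libraries and 148 CPM in control libraries and fell with acetate (-0.41 ± 0.03). EIF1AD, a relative of eIF1A that acts in maturation of the small subunit, had 35.6, 33.9, 33.5 and 35.7 CPM in acetate libraries, 42.6, 41.8, 39.6 and 43.8 CPM in TGF-β1 libraries and 28.7, 27.9, 28.6 and 27.9 CPM in control libraries. The TGF-β1 libraries were highest and the control libraries lowest. It rose with TGF-β1 (log2 fold change 0.57 ± 0.04, adjusted p = 2.25e-09), fell with acetate against TGF-β1 (log2 fold change -0.27 ± 0.04, adjusted p = 5.61e-05) and stayed above control with acetate (log2 fold change 0.29 ± 0.04, adjusted p = 2.75e-06). BANF1 overlaps EIF1AD on the opposite strand, at a mean of 60.4 CPM over the 12 libraries, and the strand setting of the counts is not known.

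Of the factors of subunit joining, EIF6, which keeps free large subunits from joining too early, had 95.3, 88.1, 103 and 89.999 CPM in acetate libraries, 117, 126, 127 and 128 CPM in TGF-β1 libraries and 143, 150.1, 149 and 158 CPM in control libraries. The groups did not overlap. EIF6 fell with TGF-β1 (log2 fold change -0.27 ± 0.04, adjusted p = 1.47e-05) and with acetate against TGF-β1 (log2 fold change -0.39 ± 0.05, adjusted p = 2.01e-06). AL121753.1 overlaps EIF6 on the same strand, at a mean of 54.9 CPM over the 12 libraries, so reads may be shared between them. EIF5B, the GTPase that joins the subunits, had 34.1, 29.04, 23.4 and 31.3 CPM in acetate libraries, 30.5, 25.5, 27.3 and 25.9 CPM in TGF-β1 libraries and 29.7, 27.3, 26.5 and 26.1 CPM in control libraries. The groups overlapped and it passed in no comparison, with 0.12 ± 0.09 for acetate against TGF-β1 (adjusted p = 0.281). With library totals that value was 0.25 (adjusted p = 0.0326). It was 0.21 without S24 (adjusted p = 0.0120), but 0.04 without S22, 0.06 without S16 and 0.07 without S18 (adjusted p = 0.734, 0.597 and 0.591). For acetate against control it was 0.10 ± 0.08 (adjusted p = 0.291), 0.20 without S24 (adjusted p = 0.0110) and 0.03 without S22 (adjusted p = 0.791).

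eIF5A, named as an initiation factor, helps ribosomes past difficult stretches in elongation and carries the modified amino acid hypusine. EIF5A had 396, 380.5, 386 and 387 CPM in acetate libraries, 556, 585, 551 and 592 CPM in TGF-β1 libraries and 488, 463, 472 and 482 CPM in control libraries. The acetate libraries were lowest and the TGF-β1 libraries highest, with no overlap. It rose with TGF-β1 (log2 fold change 0.27 ± 0.03, adjusted p = 3.71e-06) and fell with acetate (log2 fold change -0.55 ± 0.03, adjusted p = 7.77e-10). EIF5A2, its paralogue, studied as a gene gained in tumours (chromosome 3, 170888415 to 170908693 on hg38), had 11.4, 12.3, 13.3 and 12.3 CPM in acetate libraries, 10.39, 9.22, 9.79 and 9.52 CPM in TGF-β1 libraries and 15.1, 13.1, 13.2 and 13.4 CPM in control libraries. The TGF-β1 libraries were lowest, and acetate and control libraries overlapped. It fell with TGF-β1 (log2 fold change -0.49 ± 0.06, adjusted p = 4.88e-06) and rose with acetate (log2 fold change 0.35 ± 0.07, adjusted p = 2.46e-04). The call for acetate against control (log2 fold change -0.15 ± 0.06, adjusted p = 0.0464) was lost without S1, S4, S22, S23 or S25 (-0.10, -0.16, -0.11, -0.15 and -0.15, adjusted p = 0.185, 0.0531, 0.143, 0.0778 and 0.0789) and with library totals (-0.10, 0.180). EIF5AL1, a near-identical copy of EIF5A on chromosome 10, gave 0.27 ± 0.06 and -0.74 ± 0.07, and its reads may come from EIF5A.

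Ratios within a library show how relatives shifted against each other without any scaling between libraries. They are ratios of CPM, not corrected for transcript length, and serve to compare groups. The median ratio of EIF4G3 to EIF4G1 was 0.273 in acetate libraries (0.262 to 0.285), 0.183 in TGF-β1 libraries (0.178 to 0.199) and 0.229 in control libraries (0.226 to 0.250). EIF5A2 amounted to 3.22% of EIF5A in acetate libraries, 1.69% in TGF-β1 libraries and 2.81% in control libraries. In both pairs the TGF-β1 libraries were lowest and the groups overlapped nowhere except between acetate and control for EIF5A2.

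The median ratio of EIF2S2 to EIF2S3, the β and γ subunits of 1 complex, was 0.431 in acetate libraries (0.422 to 0.440), 0.420 in TGF-β1 libraries (0.410 to 0.433) and 0.853 in control libraries (0.810 to 0.877). That of EIF1B to EIF1 was 0.110 in acetate libraries, 0.112 in TGF-β1 libraries and 0.0528 in control libraries. Both ratios separated the treated groups from control and overlapped between acetate and TGF-β1. The median ratio of EIF3D to EIF3B was 0.399 in acetate libraries, 0.441 in TGF-β1 libraries and 0.556 in control libraries, and that of EIF3E to EIF3A was 1.08, 1.41 and 0.932. The EIF3E to EIF3A ratios overlapped between acetate (0.994 to 1.19) and control libraries (0.912 to 1.03). For EIF4A1 to EIF4A2 the median ratio was 2.68, 3.21 and 2.77, with overlapping libraries.

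**Figure D4:**
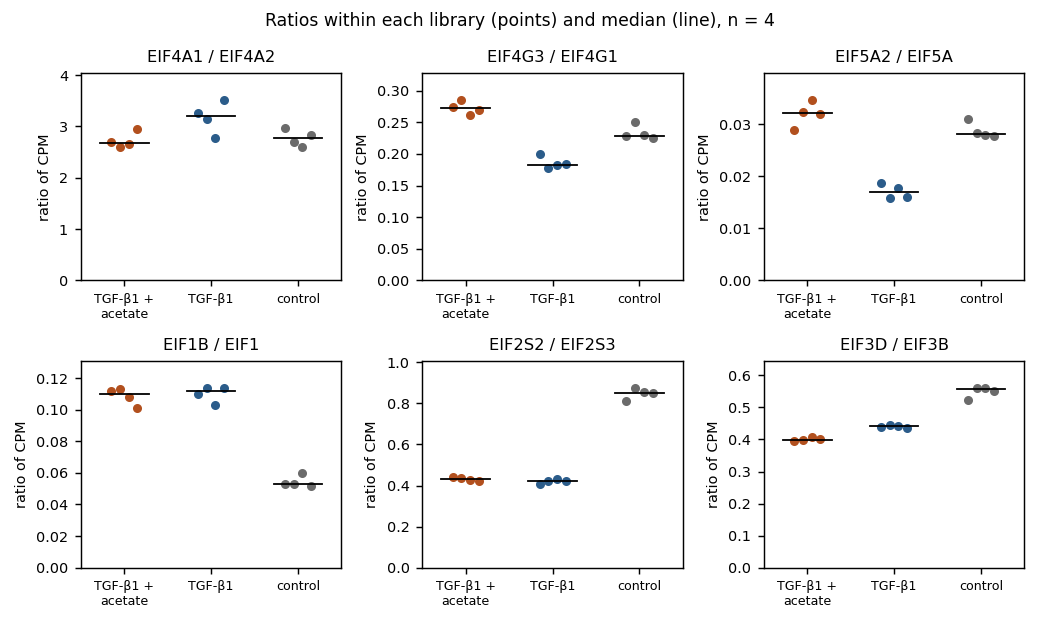
Ratio of CPM between pairs of initiation factor genes within each library (points) and the group median (line, n = 4), from left to right TGF-β1 plus acetate, TGF-β1 and control. EIF4G3 to EIF4G1 and EIF5A2 to EIF5A are lowest with TGF-β1, EIF2S2 to EIF2S3 and EIF1B to EIF1 separate control from both treated groups, and EIF3D to EIF3B is lowest with acetate.

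As a share of all counts, the 52 genes took on average 0.8294% in acetate libraries (0.823% to 0.836%), 0.994% in TGF-β1 libraries (0.984% to 1.00%) and 1.05% in control libraries (1.03% to 1.08%), with no overlap between groups. Small RNA genes took 5.24%, 6.54% and 7.14% of counts in the same order. Without them the shares of the 52 genes were 0.875%, 1.06% and 1.13%, and without the 10 genes with the most counts 0.900%, 1.11% and 1.16%. Such shares scale each library by its total, and the step from control to TGF-β1 depends on that scaling. With TMM-adjusted totals the summed CPM of the 52 genes overlapped, at 10300 to 10667 in TGF-β1 libraries and 10260 to 10497 in control libraries. Acetate libraries, at 7855 to 8103, stayed below both. Per kilobase of the longest annotated transcript, EIF4A1 had the highest level of the 52 genes in TGF-β1 libraries (678 CPM per kb), and by the median transcript length EIF4G2 did (2027 CPM per kb), so the order of levels depends on the length used.

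**Figure D5:**
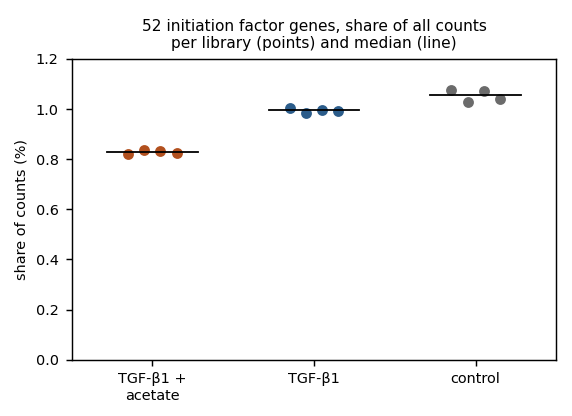
Share of all counts taken by the 52 initiation factor genes in each library (points) and the group median (line), in percent, from left to right TGF-β1 plus acetate, TGF-β1 and control. The acetate libraries lie between 0.823% and 0.836%, below the TGF-β1 libraries between 0.984% and 1.00%, which lie below the control libraries between 1.03% and 1.08%. The shares are of library totals, and with TMM-adjusted totals the TGF-β1 and control libraries overlap.

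Genes that work beside the initiation factors were read from lists of pathway genes. Beside the counts in each list stand the shares of all genes tested. These were 32.8% lower and 34.1% higher with TGF-β1 against control, and 30.4% lower and 33.3% higher with acetate against TGF-β1. The 9 genes of the ATF4 branch, which respond to eIF2α phosphorylation, all fell with TGF-β1 against control, with a median of -2.58. ATF4 itself had 147, 148, 156 and 149 CPM in acetate libraries, 195, 206, 277 and 214 CPM in TGF-β1 libraries and 322, 330.5, 333 and 342 CPM in control libraries, with S17 above the other TGF-β1 libraries, and fell with TGF-β1 (log2 fold change -0.57 ± 0.08, adjusted p = 7.01e-06) and with acetate (log2 fold change -0.56 ± 0.08, adjusted p = 1.52e-05). With acetate against TGF-β1, 3 of the 9 fell and 2 rose, and with library totals 2 fell and 3 rose. ASNS, the asparagine synthetase and an ATF4 target, fell in each step, with group means of 17.4 CPM in acetate libraries, 37.8 CPM in TGF-β1 libraries and 252 CPM in control libraries (-2.73 ± 0.06 for TGF-β1 against control and -1.11 ± 0.07 for acetate against TGF-β1). TRIB3, a pseudokinase induced in that response, averaged 46.7 CPM in acetate libraries, 29.3 CPM in TGF-β1 libraries and 661 CPM in control libraries and rose with acetate (0.68 ± 0.07) after a fall with TGF-β1 (-4.49 ± 0.08). PPP1R15A, the phosphatase subunit that reverses eIF2α phosphorylation, averaged 20.004 CPM in acetate libraries, 19.9 CPM in TGF-β1 libraries and 88.7 CPM in control libraries, with -2.14 ± 0.08 with TGF-β1 and 0.01 ± 0.08 with acetate (adjusted p = 0.923).

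Of 30 initiation cofactors and regulators, 17 fell and 6 rose with acetate against TGF-β1, beside 30.4% lower and 33.3% higher among all genes tested. With TGF-β1 against control 12 rose and 13 fell, or 8 and 15 with library totals, beside 34.1% higher and 32.8% lower among all genes in the TMM fit. BZW1, which competes with eIF5 for eIF2, averaged 219 CPM in acetate libraries, 352 CPM in TGF-β1 libraries and 246 CPM in control libraries. It rose with TGF-β1 (0.53 ± 0.03) and fell with acetate (-0.67 ± 0.03). PABPC4, a poly(A)-binding protein, behaved likewise in direction (0.62 ± 0.04 and -0.72 ± 0.04). ABCE1, which splits ribosomes for reuse, fell with acetate (-0.63 ± 0.03), as did PAIP1, a partner of poly(A)-binding protein (-0.40 ± 0.03). MKNK2, a kinase of eIF4E, had 98.8, 91.8, 105 and 96.3 CPM in acetate libraries, 49.6, 54.9, 54.2 and 54.8 CPM in TGF-β1 libraries and 69.4, 76.2, 75.6 and 78.97 CPM in control libraries. It fell with TGF-β1 (log2 fold change -0.49 ± 0.04, adjusted p = 6.20e-08) and rose with acetate above both other groups (log2 fold change 0.89 ± 0.05, adjusted p = 1.43e-10).

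Of 23 genes of mTORC1 and S6 kinase, 12 fell and 3 rose with acetate against TGF-β1, or 7 and 5 with library totals. Among all genes in the TMM fit 30.4% fell and 33.3% rose. RRAGD, a GTPase that brings mTORC1 to the lysosome, had 16.3, 17.3, 16.5 and 16.9 CPM in acetate libraries, 4.12, 5.22, 5.52 and 4.99 CPM in TGF-β1 libraries and 4.69, 4.23, 4.47 and 4.401 CPM in control libraries. The acetate libraries stood far above the rest, and it rose with acetate (log2 fold change 1.76 ± 0.08, adjusted p = 2.62e-11). SESN3, a sestrin that restrains mTORC1, also rose with acetate (1.30 ± 0.08), while DDIT4, another inhibitor, fell with TGF-β1 (-1.03 ± 0.08) and with acetate (-0.82 ± 0.09). MLST8, a subunit of mTORC1, fell with acetate (-0.68 ± 0.06).

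Of 16 elongation and termination factors, 9 fell and 4 rose with acetate against TGF-β1. EEF1B2, an exchange subunit of elongation factor eEF1, averaged 174 CPM in acetate libraries, 324 CPM in TGF-β1 libraries and 288 CPM in control libraries. It rose with TGF-β1 (0.18 ± 0.03) and fell with acetate (-0.89 ± 0.04), and EEF1A1, the factor that brings tRNA to the ribosome, gave 0.16 ± 0.03 and -0.68 ± 0.03. EEF1A2, its paralogue, moved the other way in both (-0.29 ± 0.05 and 0.75 ± 0.06). Of 9 mitochondrial factors, which serve the separate ribosomes of mitochondria, 5 fell and 2 rose with acetate, and 5 fell and none rose with TGF-β1. Among all genes tested 30.4% fell and 33.3% rose with acetate against TGF-β1, and 32.8% fell and 34.1% rose with TGF-β1. With library totals the split of the mitochondrial factors with acetate turned to 2 lower and 4 higher. MTIF2, the mitochondrial initiation factor, averaged 50.8 CPM in acetate libraries, 70.5 CPM in TGF-β1 libraries and 113 CPM in control libraries and fell in both (-0.68 ± 0.04 and -0.46 ± 0.04), while GFM2, a factor of ribosome recycling there, fell with TGF-β1 (-0.18 ± 0.04) and rose with acetate (0.20 ± 0.04). As a check of the treatment, FN1, which encodes fibronectin, averaged 1619 CPM in acetate libraries, 1694 CPM in TGF-β1 libraries and 400.2 CPM in control libraries and rose with TGF-β1 (2.09 ± 0.06).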

How the data were processed

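The data are 12 RNA-seq libraries from A549 cells, 4 per group. Per the labels' protocols, stranded libraries were made from total RNA after removal of ribosomal RNA and read as pairs of 75 bases. Per the submitters' processing notes, bcl2fastq, HISAT2, limma and hg38 were used. How reads were counted, with which strand setting and on which annotation, is not given in the sources used here. The authors deposited 2 tables of raw counts per gene, 8 columns each, and the 4 columns present in both tables hold the same counts for each of 23771 shared genes. Across both tables, 32 other columns with values of single libraries were not used. Without a known strand setting, reads of genes that overlap on opposite strands cannot be told apart, and 21 of the 52 members overlap such a gene above 10 CPM. Among these are EIF5A with GPS2 (mean 242 CPM over the 12 libraries), EIF4B with AC068888.1 (158 CPM) and EIF1AD with BANF1 (60.4 CPM).

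The members and the pathway and marker lists were chosen with earlier results of these data known. Members in full are, in each comparison, the 3 with the smallest p in each direction plus set representatives of each step and paralogue pairs; pathway genes named come from the 4 with the smallest p in each list and comparison. Counts were tested in R 4.3.3 with edgeR 4.0.16 (filterByExpr with minimum count 10 and total 15, TMM, glmQLFit, glmQLFTest, two-sided, Benjamini-Hochberg over all genes tested, threshold 0.05), checked first on simulated data. In that simulation few genes changed, evenly up and down, with a fixed spread between libraries. It therefore does not cover data such as these, where most genes are called. Each of the comparisons TGF-β1 against control and acetate against TGF-β1 used its own table, while acetate against control used a joint fit of 12 libraries on shared genes. CPM use TMM-adjusted totals of that joint fit. The SE is the log2 fold change divided by the root of F. Total counts of 34698057 to 53936023 make 3 counts worth 0.0556 to 0.0865 CPM, which covers counting error only. Alternatives were library totals, RLE factors, DESeq2 1.42.0, voom in limma 3.58.1, no filter, other sets of libraries and each library left out. Gene types and positions come from GENCODE 29, matched for 99.1% of shared genes, with EIF2S3L under another symbol there. Promoters come from RefSeq (GRCh38.p14). Of 147 list genes, 145 were matched, without EIF4E1B and CASTOR1.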

Additional observations from a re-analysis of the deposited data

Results flagged for a closer look

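Of 156 sets of 4 values, each for 1 gene or the share of counts in 1 group, 5 sets (3.21%) held a value apart from the other 3 by Dixon's criterion. Chance meets that criterion in about 1 of 20 sets. EIF1 had 245 CPM in control library S2, where the other control libraries all had 227 CPM. EIF4A3 had 78.9 CPM in the same library, under the 87.3 to 88.1 CPM of the other control libraries. EIF5A2 had 15.1 CPM in control library S1, above the 13.1 to 13.4 CPM of the others. In acetate library S24, EIF3B had 244 CPM, above 229.8 to 231 CPM in the others, and EIF3I had 202 CPM, above 183 to 185 CPM.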

How the results depend on the processing

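No paired analysis was possible because the count columns carry no replicate numbers. The scaling mattered most. With library totals, the median log2 fold change of the 52 genes was -0.051 for TGF-β1 against control, -0.20 for acetate against TGF-β1, where 10 genes rose, and -0.22 for acetate against control. Single genes that passed with one scaling or the other and changed sign with library totals were EIF3B (-0.089) and EIF4G1 (-0.013) for TGF-β1 against control, and EIF2AK1 (0.10), EIF2S1 (0.010), EIF3I (0.12) and EIF3M (0.031) for acetate against TGF-β1. The median over all genes tested moved by -0.10 in the former comparison and by 0.13 in the latter. Why the scalings differ was not tested. A further 8 gene results that passed with neither scaling also changed sign. Of 162 gene results, 122 kept direction and side of the threshold with library totals, 153 with RLE factors, 153 with DESeq2, and 162 with voom and with no filter. The share of counts was 0.900%, 1.11% and 1.16% without the 10 largest genes and 0.875%, 1.06% and 1.13% without small RNA genes, in acetate, TGF-β1 and control libraries. Leaving out 1 library in turn gave, for acetate against TGF-β1, 40 to 41 genes lower, 2 to 3 higher and a median from -0.36 to -0.31. For TGF-β1 against control it gave 14 to 16 lower, 20 to 23 higher and a median from 0.01 to 0.07, and for acetate against control 33 to 38 lower, 5 to 7 higher and a median from -0.30 to -0.24. Acetate library S24 changed the most single calls when left out (8). Genes of the family below the authors' filter of 0.1 CPM in 4 libraries are not in the tables, so depth limits which members could be counted.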

Other observations

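The 20 processed pseudogenes of initiation factors listed in both tables summed to 101 to 108 CPM in acetate libraries, 137 to 144 CPM in TGF-β1 libraries and 119 to 127 CPM in control libraries, or 1.14% to 1.37% of the summed CPM of the 52 genes in each library. Their parent genes include EIF4B, EIF3F, EIF1AX, EIF2S2 and EIF4E, whose copies EIF4BP7, EIF3FP3, EIF1AXP1, EIF2S2P4 and EIF4EP2 averaged 15.8, 17.9, 15.3, 14.9 and 15.2 CPM over the 12 libraries. The pooled percentage does not describe single pairs, and a copy weighs more beside a parent with a low level, such as EIF4E.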
